A study of Homo sapiens with 6 samples.

Results

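The replication-dependent histone genes encode the bulk histones that package newly copied DNA: the linker histone H1 and the core histones H2A, H2B, H3 and H4. They were taken from the deposited table by gene name, as every name of the form H1-1 to H1-6 or H2AC, H2BC, H3C or H4C followed by a number. This gave 66 genes of 19514 distinct names in the table: 6 for H1, 16 for H2A, 17 for H2B, 13 for H3 and 14 for H4. The table placed 55 of them on chromosome 6 and 11 on chromosome 1 (GRCh38.p13), and none was listed on more than 1 row. The samples were wild-type ARPE-19 cells, an established line derived from human retinal pigment epithelium, and both groups came from that 1 line. In the treated group the medium held 40 µM tt-DDE (trans,trans-2,4-decadienal, a reactive aldehyde that forms as polyunsaturated fat oxidises) for 24 h. The control group received the same volume of the solvent, DMSO, for the same 24 h. There were 3 libraries in each group. Nothing in the labels says that they came from separate cultures, so p-values measure only the spread between these libraries.

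These genes are transcribed mainly while DNA is replicated, and their mRNAs are the main class of animal mRNAs that end without a poly(A) tail. A complex with the U7 small nuclear RNA cuts the transcript just after a short 3′ stem-loop, which SLBP binds. The same stem-loop marks the mRNA for rapid decay when replication stops. Some of the genes also have poly(A) signals further downstream, and in differentiated or arrested cells some of their transcripts are known to end there and carry a tail. The libraries were made from RNA bound to oligo(dT), so the counts cover the RNA that this step retained. A change in the amount of a histone mRNA and a change in the share of it that carries a tail cannot be told apart in these data, nor can more RNA per cell and more cells that contain it.

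Both kinds of end could be read in the GENCODE 29 transcripts of these genes. The 3′ stem-loop was searched with a 16-base form of the histone stem-loop consensus on the sense strand, and at least 1 transcript held it in 28 of the 66 genes, against 0.24% of the 19669 protein-coding genes. Many transcripts of the other genes stop at the end of the coding sequence, so no match says only that these letters are not in the annotated window. No H1 gene had a match. The sites of 6 genes that rose are shown because they cover the other 4 classes; the 16 bases of the stem-loop are in capitals, with 5 bases on each side.
H2AC6: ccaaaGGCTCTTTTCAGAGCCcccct
H2BC21: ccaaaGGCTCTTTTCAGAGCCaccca
H2BC4: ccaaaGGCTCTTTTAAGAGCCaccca
H3C6: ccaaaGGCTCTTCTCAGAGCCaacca
H4C8: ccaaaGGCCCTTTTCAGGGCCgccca
H4C15: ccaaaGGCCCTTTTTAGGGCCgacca
The 28 genes shared 6 distinct cores. The most frequent, that of H2AC6 and H2BC21, stood in 15 genes of the H2A, H2B and H3 classes, and the cores of H4C8 and H4C15 stood in 4 and 3 genes of the H4 class.

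The poly(A) signal AATAAA lay in the last 30 bases of at least 1 transcript in 20 of the 66 genes, against 63.7% of the protein-coding genes, and 19 of these 20 genes also held the stem-loop. The search required neither the same transcript nor an order. In H4C11 the signal lay before the stem-loop, so it is not a downstream signal. The ends of 5 transcripts with AATAAA are shown with the signal in capitals, since their genes were among those that gained most counts after tt-DDE.
H2AC6 end: tAATAAAaggtaatgcaaagggagaggaaa
H2BC21 end: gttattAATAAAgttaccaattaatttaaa
H2BC5 end: taattAATAAAatctgcggagaattgtaaa
H3C6 end: agatgtaaAATAAAagattactgaacagaa
H4C8 end: agaattgtgaaaaAATAAAtgtttaagcca
In these 5 genes the longest stretch annotated after the stem-loop was 1128, 1729, 39, 1862 and 1655 bases, in the order shown. Only in H2BC5, of these 5, was less than 100 bases annotated beyond the stem-loop.

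Libraries held 14156421 to 16061373 counts with DMSO and 15548067 to 17130543 with tt-DDE. A level of 3 counts, taken as the counting floor, equalled 0.18 to 0.206 CPM, the count scaled to the library's size with TMM factors. Histone genes held 1016 to 1268 counts in each DMSO library and 2239 to 2492 in each tt-DDE library. Of the markers of pigment epithelium, KRT8 and KRT18 stood at 748.1 and 364.6 CPM in DMSO and MITF at 59.4 CPM. PMEL was low at 4.26 CPM in DMSO, RLBP1 stood at 0.926 CPM and TYR at 0 CPM. RPE65, the retinoid isomerase of the mature epithelium, had no count in any library. Markers of leukocytes, endothelium, photoreceptors and neurons were at or below 0.758 CPM in both groups, apart from CD68, which went from 128.8 to 105.6 CPM. Some markers moved with the treatment. BEST1 went from 0.506 to 21.6 CPM and RBFOX3, a neuronal marker, from 0 to 0.758 CPM. KRT8 fell to 213.7 CPM, KRT18 to 144.8 CPM and PMEL to 2.32 CPM. The part of these markers in the histone results was not tested.

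After tt-DDE, RNA of the histone genes was more abundant in the oligo(dT)-selected libraries in every class when its genes were summed. For H2A most of that sum came from H2AC6. The 66 genes together went from 71.5 ± 4.09 to 147.1 ± 3.78 CPM (SD, n = 3 each), and most single genes that could be tested rose, led by H1-4, H4C15, H4C8 and H2BC8. H2BC12, which alone held more counts in DMSO than the rest together, did not rise and had a small fall. Of the 66 genes, 18 passed the filter on low counts (0.626 CPM in 3 libraries) and 48 did not. The 18 were tested in the quasi-likelihood fit of edgeR, with p-values adjusted by Benjamini-Hochberg over 12531 genes and a threshold of 0.05. Of them 17 passed, beside 83.3% of all genes tested: 15 rose, beside 41.7%, and 2 fell, beside 41.6%. At least 2-fold rises numbered 13, beside 16.1% of all genes, and at least 4-fold rises 9, beside 4.73%; 1 fall was at least 2-fold, beside 16.8%. The median log2 fold change of the 18 was 2.00, against 0.00 for all genes, with a range of -1.07 to 5.14. DESeq2 called 14 higher and none lower (also none at an unadjusted p under 0.05, against 2 with edgeR), beside 40.5% and 39.8% of all genes. With libraries scaled to column totals alone, 13 were higher and 2 lower, beside 37.8% and 45.4%.

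These counts describe the genes that were tested and are not support on their own, because 8 of the 18 passed the filter only through their tt-DDE libraries and H2AC11 only through its DMSO libraries. The other 9 reached the minimum in all 6 libraries, and 7 of those rose, beside 41.7% of all genes tested, H2BC12 fell and H2BC11 did not pass. The share among all genes that reached the minimum in all 6 libraries was not worked out, so this count has no matched background. The libraries of the groups did not overlap for 15 of the 18 genes, beside 83.9% of all genes, and for 14 of these all 3 tt-DDE libraries lay above all 3 DMSO libraries, beside 42%. Among genes with a mean under 15 CPM, which include 17 of the 18, 37.6% of all tested genes rose and 23.8% rose at least 2-fold, while 15 and 13 of the 17 histone genes did so.

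**Figure D1:**
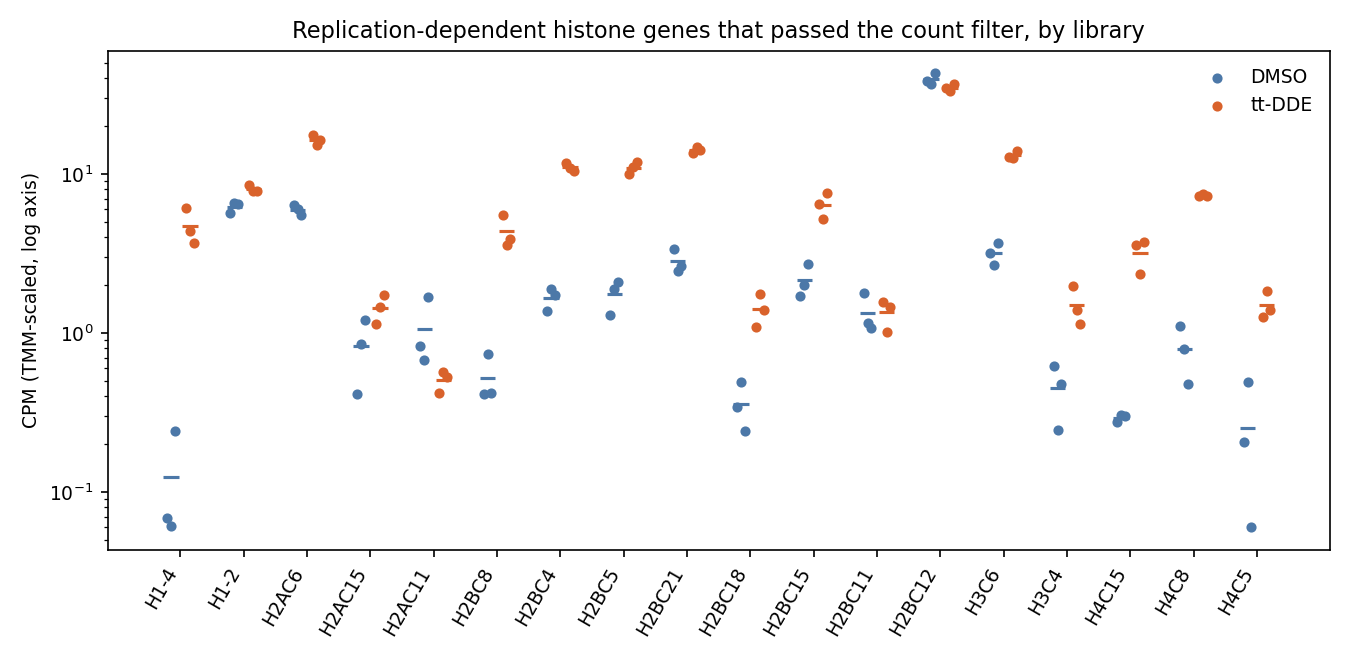
Level of each of the 18 histone genes that passed the count filter, in CPM on a log axis, with 1 point per library and a bar at the mean of 3; genes are ordered by class and then by fold change. The tt-DDE points (orange) lie above the DMSO points (blue) in 14 genes, by most in H1-4 (0.123 to 4.69 CPM), while H2BC12 has means of 39.3 and 34.9 CPM.

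Linker histones bind the DNA between nucleosomes. H1-4 (chromosome 6, 26156329 to 26157115, 787 bases in the table) had 1, 1 and 4 counts in the DMSO libraries and 101, 69 and 55 in the tt-DDE libraries. It was at or near the floor in every DMSO library and far above it in every tt-DDE library. Its mean rose from 0.123 CPM (SD 0.101, n = 3) to 4.69 CPM (SD 1.24, n = 3), by 5.14 on the log2 scale (SE 0.40, edgeR adjusted p = 7.02e-16), and the ratio of summed counts was 37.5 (95% exact interval 17.0 to 103.4, counting error only). H1-2 (26055740 to 26056470) was the most abundant linker histone in DMSO, with 5.70, 6.53 and 6.43 CPM, against 8.48, 7.81 and 7.78 CPM after tt-DDE. The groups did not overlap, and H1-2 rose by 0.37 on the log2 scale (SE 0.14, edgeR adjusted p = 0.0153). That call was lost with column totals alone (0.27, edgeR adjusted p = 0.0674), when DMSO library 1 was left out (0.30) and when tt-DDE library 1 was (0.32). H1-4 held 0.17% of all histone counts in DMSO and 3.18% after tt-DDE, and H1-2 held 8.71% and 5.45%. H1-3 had 3 and 9 counts over the groups and was not tested. H1-5 had 6 counts in DMSO and none after tt-DDE, H1-6 none and 3, and H1-1 none and 1.

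H2A pairs with H2B in the nucleosome. H2AC6 (26124172 to 26124690), the leading H2A gene, stood at 6.39, 5.98 and 5.53 CPM in DMSO and 17.6, 15.3 and 16.2 CPM after tt-DDE. The groups were far apart relative to their spread, and H2AC6 rose by 1.46 on the log2 scale (SE 0.12, edgeR adjusted p = 5.12e-15). H2AC6 was the second most counted histone gene in the tt-DDE libraries, after H2BC12. H2AC15 (27837880 to 27838375) had 6, 14 and 20 counts in DMSO and 19, 23 and 26 after tt-DDE, so the groups overlapped. It rose by 0.77 (SE 0.35, edgeR adjusted p = 0.041), a call lost under 7 alternatives, with column totals, no filter, DESeq2, or 1 of 4 libraries left out, at values of 0.47 to 0.80. H2AC11 (27133043 to 27133535) had 12, 11 and 28 counts in DMSO and 7, 9 and 8 after tt-DDE. It fell by 1.07 on the log2 scale (SE 0.42, edgeR adjusted p = 0.0183), and its high DMSO library 3 weighed on this, since the change was -0.56 and not called without it. The call was also lost when tt-DDE library 1 was left out (-0.95) and with DESeq2 (-1.06). Below the filter, H2AC8 had 11 and 24 counts over the groups, H2AC20 had 13 and 14, and H2AC16 had 11 and 3.

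H2B had 8 tested genes, more than any other class: 6 rose, beside 41.7% of all genes tested, 1 fell, beside 41.6%, and 1 did not pass. H2BC21 (chromosome 1, 149884459 to 149886682) stood at 3.37, 2.44 and 2.64 CPM in DMSO and 13.5, 14.7 and 14.2 CPM after tt-DDE. H2BC4 (chromosome 6, 26113170 to 26123926) stood at 1.37, 1.89 and 1.74 CPM and then 11.8, 10.9 and 10.4 CPM. H2BC5 (26158008 to 26171349) stood at 1.31, 1.89 and 2.10 CPM and then 9.98, 11.1 and 11.8 CPM. In all 3 genes the lowest tt-DDE library was several times the highest DMSO library, and the log2 fold changes were 2.33 (SE 0.15), 2.71 (SE 0.18) and 2.61 (SE 0.18), with edgeR adjusted p-values of 5.01e-19, 1.00e-18 and 5.87e-18. H2BC8 (26216200 to 26216688) went from 6, 12 and 7 counts to 92, 57 and 59, a log2 fold change of 3.04 (SE 0.30, edgeR adjusted p = 1.31e-12).

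H2BC15 (27838569 to 27839110) rose more moderately, from 1.72, 2.01 and 2.70 CPM to 6.43, 5.17 and 7.58 CPM, by 1.56 on the log2 scale (SE 0.20, edgeR adjusted p = 1.91e-09). H2BC18 (chromosome 1, 149782689 to 149812370) had 5, 8 and 4 counts in DMSO and 18, 28 and 21 after tt-DDE, apart in every library, and rose by 1.96 (SE 0.41, edgeR adjusted p = 3.51e-05). Its annotated span overlaps FCGR1A on the other strand over 17916 bases, and FCGR1A itself had 3 and 31 counts over the groups. No strand setting is known for the counting, so reads of the pair cannot be told apart. H2BC11 (27132316 to 27132795) had 26, 19 and 18 counts in DMSO and 26, 16 and 22 after tt-DDE. Its groups overlapped fully, and the log2 fold change was 0.02 (SE 0.31, edgeR adjusted p = 0.955).

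H2BC12 (27138293 to 27146858) stood at 38.6, 36.6 and 42.8 CPM in DMSO and 34.5, 33.3 and 36.9 CPM after tt-DDE. The highest tt-DDE library lay just above the lowest DMSO library. The gene fell by 0.17 on the log2 scale (SE 0.07, edgeR adjusted p = 0.0194), a call lost with DMSO library 3 left out (-0.12), with tt-DDE library 2 left out (-0.14) and with DESeq2 (-0.16). Of its 50-base words, 22.6% also occur in transcripts of other histone genes, so some of its reads may have been assigned with doubt. Below the filter, H2BC7 had 2 counts in DMSO and 21 after tt-DDE, and H2BC6 had 1 and 14.

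H3 carries the tail on which many regulatory marks are placed. H3C6 (26224178 to 26227473) was the main H3 gene, at 3.16, 2.69 and 3.66 CPM in DMSO and 12.9, 12.7 and 14.0 CPM after tt-DDE. The groups were well apart, with a log2 fold change of 2.05 (SE 0.15, edgeR adjusted p = 3.37e-17). H3C4 (26196784 to 26199293) had 9, 4 and 8 counts in DMSO and 33, 22 and 17 after tt-DDE, and rose by 1.76 (SE 0.40, edgeR adjusted p = 8.88e-05). Its span covers all 510 bases of H2AC7 on the same strand, and H2AC7 had no count. Reads of H2AC7 may have been counted under H3C4, so the rise cannot be assigned to H3C4 alone. Of the other H3 genes with at least 10 counts in all, which were not tested, H3C1 had 4 counts in DMSO and 15 after tt-DDE, H3C13 had 4 and 13, H3C2 had 8 and 11, H3C3 had 5 and 6, and H3C10 had 12 and 7.

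H4 forms a tetramer with H3 at the core of the nucleosome, and its tested genes were low in DMSO, at or below 1.10 CPM in every library. H4C8 (26285126 to 26285534) went from 1.10, 0.793 and 0.480 CPM to 7.21, 7.50 and 7.31 CPM. The tt-DDE libraries differed little from each other, and H4C8 rose by 3.22 on the log2 scale (SE 0.24, edgeR adjusted p = 6.81e-17). H4C15 (chromosome 1, 149853262 to 149861159) went from 4, 5 and 5 counts to 59, 37 and 56, a log2 fold change of 3.41 (SE 0.36, edgeR adjusted p = 8.39e-12) and a ratio of summed counts of 10.9 (95% exact interval 6.28 to 20.4). H4C15 has a near-identical copy in the GENCODE 29 transcripts: 97.2% of its 50-base words also occur in H4C14, which had no count. The lengths used for counting differ, at 3239 bases for H4C15 and 396 for H4C14. How reads of the pair were assigned is not known, so reads of H4C14 may stand under H4C15. H4C5 (26204610 to 26205021) went from 3, 8 and 1 counts to 21, 29 and 21, a log2 fold change of 2.53 (SE 0.46, edgeR adjusted p = 2.76e-06). Below the filter, H4C12 had 3 counts in DMSO and 23 after tt-DDE, and H4C9 had 7 and 11. H4C9 overlaps H2BC12 on the other strand over 397 bases, and all of the 50-base words of H4C12 also occur in H4C11.

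Of the 48 genes under the filter, 13 had no count in any library: H2AC1, H2AC7, H2BC1, H2BC9, H2BC10, H3C7, H3C8, H3C11, H3C12, H3C15, H4C6, H4C13 and H4C14. The other 35 held 114 counts in the DMSO libraries and 235 in the tt-DDE libraries, a ratio of 2.06 (95% exact interval 1.64 to 2.60), with every tt-DDE library above every DMSO library. Their summed level was higher after tt-DDE in 28 genes and lower in 7; this is close to the background, since the same held for 72% of all genes with counts under the filter. By class, the pooled counts under the filter went from 9 to 52 for H2B (ratio 5.78, 2.82 to 13.4) and from 14 to 59 for H4 (4.22, 2.33 to 8.18), and these 2 pools did not overlap between groups. The pools of H1 (9 to 13, 0.572 to 3.83), H2A (48 to 59, 0.826 to 1.84) and H3 (34 to 52, 0.975 to 2.43) had intervals that include equal levels. Without the filter, edgeR called 18 of 53 genes with counts higher, beside 34.2% of all genes, and 3 lower, beside 33%. The share called higher was thus near that of all genes and does not set the histone genes apart. H2BC6, H2BC7, H4C12 and H4C3 were then added to the rises and H1-5 to the falls, and H2AC15 was lost.

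Summed over all its genes, each class was higher after tt-DDE in all 3 libraries. H4 showed the largest ratio, from 1.63 ± 0.372 to 13.3 ± 0.471 CPM (8.20, exact interval 6.47 to 10.5), and H3 went from 4.34 ± 0.75 to 15.8 ± 0.455 CPM (3.64, 3.12 to 4.27). H2A went from 8.84 ± 0.598 to 19.5 ± 0.725 CPM (2.20, 1.96 to 2.48) and H1 from 6.53 ± 0.542 to 12.98 ± 1.69 CPM (1.99, 1.73 to 2.29). H2AC6 alone gave 283 of the 422 H2A counts in DMSO and 778 of the 929 after tt-DDE. The H2A ratio is therefore mostly that of H2AC6. H2B went from 50.2 ± 3.36 to 85.6 ± 2.60 CPM (1.70, 1.62 to 1.79), but from 10.8 ± 0.385 to 50.7 ± 0.816 CPM without H2BC12 (4.69, 4.26 to 5.16). The order of the classes by ratio therefore depends on H2BC12. No test was made on these sums, and the intervals cover counting error only.

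**Figure D2:**
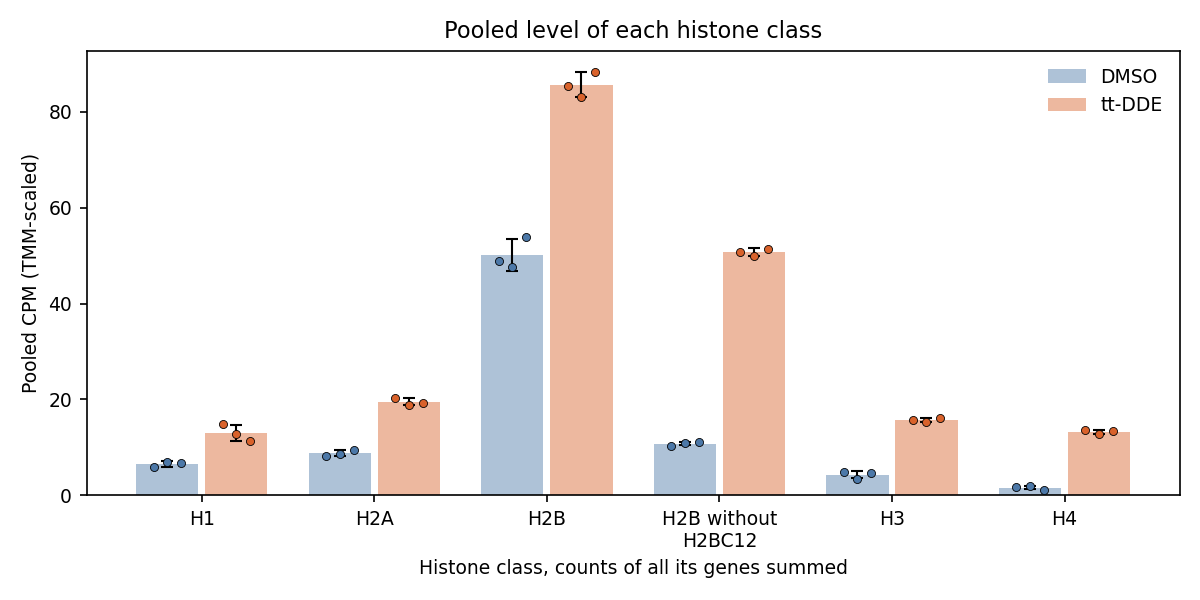
Pooled level of each histone class in CPM on a linear axis from 0, with the counts of all genes of a class summed in each library; bars are means, error bars SD and points the 3 libraries of a group. Every class is higher after tt-DDE, and H2B is also drawn without H2BC12, where it goes from 10.8 to 50.7 CPM.

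The make-up of the histone counts shifted with this. H2BC12 held 55.3%, 53.4% and 56.2% of all histone counts in the DMSO libraries and 23.0%, 23.3% and 24.8% in the tt-DDE libraries. The shares of H2BC21, H3C6, H2BC4 and H2BC5 went from 3.95%, 4.42%, 2.34% and 2.46% on average to 9.61%, 8.94%, 7.50% and 7.46%, and that of H4C8 from 1.12% to 4.99%. Without H2BC12, histone genes went from 32.1 ± 1.09 to 112.2 ± 2.91 CPM, a ratio of 3.49 (3.30 to 3.70). All histone genes together made up 0.00706% to 0.00789% of the counts in the DMSO libraries and 0.0138% to 0.0145% in the tt-DDE libraries, so they remained a very small part of what was sequenced.

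**Figure D3:**
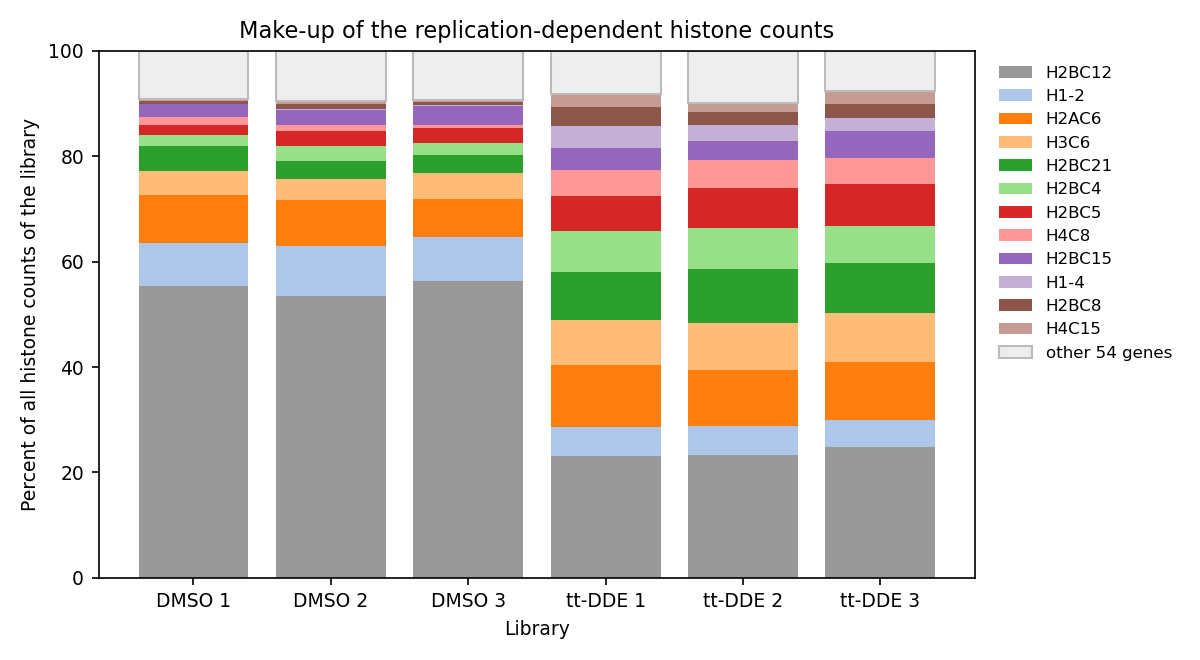
Percent of the histone counts of each library that came from each of 12 genes and from all others, stacked to 100%. H2BC12 (grey, at the base) takes about 55.0% on average in the 3 DMSO libraries and 23.7% in the 3 tt-DDE libraries, and the libraries of a group look alike.

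Levels between genes were compared per length, in the deposited FPKM, the count scaled to gene length and to the column total. In DMSO the order was H2BC12 at 45.8 ± 3.86, H2AC6 at 11.9 ± 0.811, H1-2 at 8.78 ± 0.659 and H2BC15 at 4.09 ± 0.981 FPKM. These neighbours were separated by more than their SDs, while H2BC11 (2.88 ± 0.820), H2AC11 (2.22 ± 1.15), H4C8 (1.99 ± 0.773) and H2AC15 (1.71 ± 0.830) were not. After tt-DDE, H2BC12 at 38.1 ± 2.01 and H2AC6 at 30.5 ± 2.26 FPKM still led, but H4C8 came next at 17.4 ± 0.290 FPKM. H2BC15 (11.4 ± 2.17), H1-2 (10.6 ± 0.552), H2BC8 (8.61 ± 2.08) and H2BC5 (8.04 ± 0.669) followed without clear steps between neighbours. FPKM divides by the table's gene length, which was far shorter than the longest annotated transcript for some genes: 409 against 2163 bases for H4C8, and 519 against 1668 for H2AC6.

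The genes lie in clusters, and the calls differed with place. Separating genes wherever neighbours were over 400000 bases apart gave 1 group on chromosome 1 and 3 on chromosome 6. The chromosome 1 group (149782689 to 149887965, 11 genes) went from 183 to 927 counts (ratio 5.07, exact interval 4.32 to 5.98), and all 3 of its tested genes rose. The first group on chromosome 6 (25726063 to 26285534, 34 genes) went from 1035 to 3887 counts (3.76, 3.51 to 4.03), and all 10 of its tested genes rose. In the third (27807479 to 27893891, 16 genes) counts went from 188 to 424 (2.26, 1.90 to 2.70), and both tested genes rose. These genes, H2BC15 (103 to 303) and H2AC15 (40 to 68), gave most of the counts, so the ratio is mostly theirs. Of its untested genes with at least 10 counts, H4C12 was higher after tt-DDE (3 to 23), and H3C10 (12 to 7) and H2AC16 (11 to 3) were lower. Of all genes tested, 41.7% rose. H2BC18 and H4C15 on chromosome 1 passed the filter only through their tt-DDE libraries. So did H1-4, H2BC8, H3C4, H4C5 and H4C8 of the first chromosome 6 group and H2AC15 of the third. Their calls are therefore not support on their own.

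The second group on chromosome 6 (27132316 to 27147562) holds 5 genes within 15.2 kb: H2BC11, H2AC11, H2BC12, H4C9 and H2AC12. Its counts went from 2001 to 1760 (ratio 0.880, 0.825 to 0.939), with overlapping libraries. Its 3 tested genes, H2BC11, H2AC11 and H2BC12, were the 3 of the 18 that were not called higher. This was noticed after the values were seen and was not tested. H2BC12 gave most of the counts of the group, so the group's ratio is mostly that gene's.

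**Figure D4:**
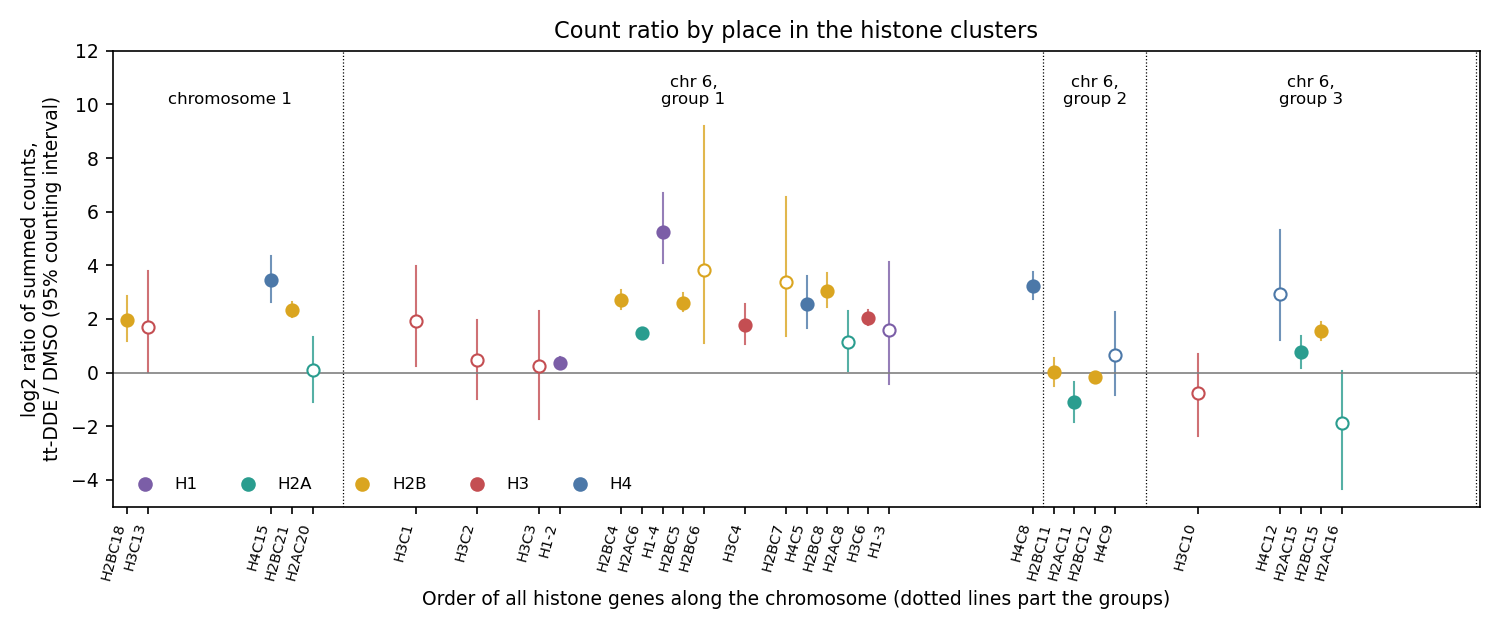
Log2 ratio of summed counts (tt-DDE over DMSO) for the 31 histone genes with at least 10 counts, placed by their order along the chromosomes, with exact 95% counting intervals; filled points passed the filter and open points did not, colours give the class, and dotted lines part the 4 groups. Points lie above 0 in most of the chromosome 1 group and of chromosome 6 group 1, and close to or below 0 for the 3 filled points of group 2.

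Gene structure also differed between the genes that passed the filter and those that did not. The table's median length was 759 bases for the 18 tested genes and 486.5 for the 48 others. Of the 66 genes, 8 were longer than 850 bases in the table, and all 8 were among the tested ones: H2BC12, H2BC18, H2BC21, H2BC4, H2BC5, H3C4, H3C6 and H4C15. All of these but H2BC12 rose, beside 41.7% of all genes tested. Among them, H2BC18, H3C4 and H4C15 passed the filter only through their tt-DDE libraries. In 7 genes the annotated span exceeded the length, which means that an intron is annotated, and these 7 were also all tested. The stem-loop was found in a transcript of 12 of the 18 tested genes and 16 of the 48 others, and AATAAA near a transcript's end in 10 of the 18 and 10 of the 48. Longer genes collect more counts at a given level, so a filter on counts favours them, and these shares are a description.

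Among the 15 genes that rose, 11 held the stem-loop and 8 held AATAAA near a transcript's end. H1-4, with the largest rise, had neither in the transcripts searched. Of the 3 that did not rise, H2AC11 alone held the stem-loop, and 2 held AATAAA. The annotated transcript of H2BC12 spans 381 bases, against 887 bases in the table, so its missing matches say little. With only 3 genes that did not rise, these counts cannot decide whether the letters separate them from the genes that rose. Which end the sequenced molecules had was not measured.

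Promoters (RefSeq, GRCh38.p14, 250 bases before to 50 after the start) matched 61 of the 66 genes, among them all 18 tested. Both strands were searched for 3 motifs. The octamer ATTTGCAT, bound by POU2F1, stood in 26 of the 61, of which 14 of 17 H2B and 11 of 15 H2A promoters, 1 of 11 H3 promoters and no H1 or H4 promoter, against 1.8% of 35116 promoters in the table. The H3 match was that of H3C4, which rose, and its window is the same stretch as that of H2AC7. Windows of several neighbouring H2A and H2B genes on opposite strands, such as H2AC6 and H2BC4, also overlap almost fully. These matches are therefore not all separate sites. CCAAT stood in 52, against 34.6%, and TATAAA in 41, against 11.5%. Of the 15 genes that rose, 6 held the octamer, 12 CCAAT and 7 TATAAA. Among all 18 tested the numbers were 9, 15 and 10. H2AC11, H2BC11 and H2BC12, the 3 tested genes that were not called higher, each held all 3 motifs. The windows of H2AC11 and H2BC11 lie on opposite strands of mostly the same bases, so their matches are largely the same sites. Whether motif content differed between genes that rose and the others was not tested. The promoters of H2BC21, which rose, and H2BC12, which fell slightly, are shown because both held all 3 motifs, in capitals on whichever strand they matched. They lie at chr1:149886633-149886932 and chr6:27146809-27147108, both on the minus strand.
H2BC21: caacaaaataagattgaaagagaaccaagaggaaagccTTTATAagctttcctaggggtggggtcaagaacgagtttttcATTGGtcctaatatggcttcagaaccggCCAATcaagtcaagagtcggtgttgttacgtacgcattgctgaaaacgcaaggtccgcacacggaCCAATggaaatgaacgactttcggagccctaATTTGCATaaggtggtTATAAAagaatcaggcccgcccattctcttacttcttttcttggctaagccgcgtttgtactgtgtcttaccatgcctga
H2BC12: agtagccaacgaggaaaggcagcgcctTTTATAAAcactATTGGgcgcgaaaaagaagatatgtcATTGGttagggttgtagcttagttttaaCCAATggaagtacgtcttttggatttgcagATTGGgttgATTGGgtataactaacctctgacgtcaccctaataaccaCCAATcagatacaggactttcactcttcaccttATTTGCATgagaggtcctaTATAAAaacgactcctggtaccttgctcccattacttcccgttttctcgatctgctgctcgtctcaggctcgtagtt
The same 3 motifs therefore occurred in the promoters of a gene that rose about 5.03-fold and of a gene that did not rise. A match is not evidence that a factor was bound.

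Replication-independent histones, which lie outside the clusters and mostly have ordinary polyadenylated mRNAs, went the other way in the same fit. Of 11 such genes tested, 10 fell, beside 41.6% of all genes, and none rose, while H2AJ missed the threshold; the median log2 fold change was -1.41. H2AZ1, the main H2A.Z gene, fell from 526.2, 547.4 and 539.6 CPM to 112.0, 109.2 and 119.9 CPM (log2 fold change -2.24, edgeR adjusted p = 3.25e-40). The log2 fold change was -3.55 for CENPA, the centromeric H3, and -1.52 for H2AX, the form phosphorylated at DNA breaks. H3-3A and H3-3B, which both encode H3.3, fell as well (-1.41 and -0.55), as did the linker histone H1-10 (-1.54). H2AJ, with 5.00 ± 0.451 and 5.40 ± 0.263 CPM (SD, n = 3), had a log2 fold change of 0.11 (edgeR adjusted p = 0.539).

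Genes that make and process histone mRNA moved in both directions. Of 28 genes tested for transcription and 3′ end formation, 10 rose and 16 fell, beside 41.7% and 41.6% of all genes, and the median log2 fold change was -0.45. ZNF473, a zinc finger protein of the U7 machinery, rose from 14.8, 15.6 and 13.1 CPM to 75.7, 80.7 and 80.4 CPM (2.45, edgeR adjusted p = 4.19e-32). SLBP, the stem-loop binding protein, stood at 127.5, 127.8 and 119.6 CPM in DMSO and 130.7, 150.3 and 133.1 CPM after tt-DDE, a small rise of 0.14 (edgeR adjusted p = 0.00536). NPAT, the coactivator of histone genes, fell (-0.28), as did CASP8AP2 of the histone locus body (-0.88). The Sm proteins SNRPE (-1.41) and SNRPG (-1.38) and the S phase transcription factor E2F1 (-1.42) fell too.

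For histone mRNA decay, 8 of 20 tested genes rose and 10 fell (median -0.13), shares near the 41.7% and 41.6% of all genes, so the list is not set apart by its counts. LSM4, a subunit of the Lsm ring that binds RNA 3′ ends, fell (-1.87). TUT7, a terminal uridylyltransferase, rose by 1.46, the decapping enzyme DCP2 by 1.53 and SMG1, the kinase of UPF1, by 1.12. Of 25 histone chaperones and supply factors, 19 fell and 4 rose (median -0.71), beside 41.6% and 41.7% of all genes. Falls included HJURP, the CENP-A chaperone (-4.37), CHAF1A of the replication-coupled assembly factor CAF-1 (-1.86), SSRP1 of FACT (-0.99) and ANP32E, an H2A.Z chaperone (-1.40). UBN1 of the HIRA complex rose by 0.83.

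Genes of S phase, when histone mRNA is normally made, fell in 31 of 32 cases (median -2.50), beside 41.6% of all genes. RRM2 and RRM1, the subunits of ribonucleotide reductase, had log2 fold changes of -3.14 and -2.20, the helicase subunit MCM4 -2.93 and CCNA2, a cyclin of S phase and mitosis, -4.46. CCNE1, the cyclin of S phase entry, was the exception and rose (0.63). The tested replication-dependent histone genes thus had a median of 2.00 while those of S phase, of the chaperones and of the replication-independent histones were below 0 in the same libraries. Why they differed was not tested.

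**Figure D5:**
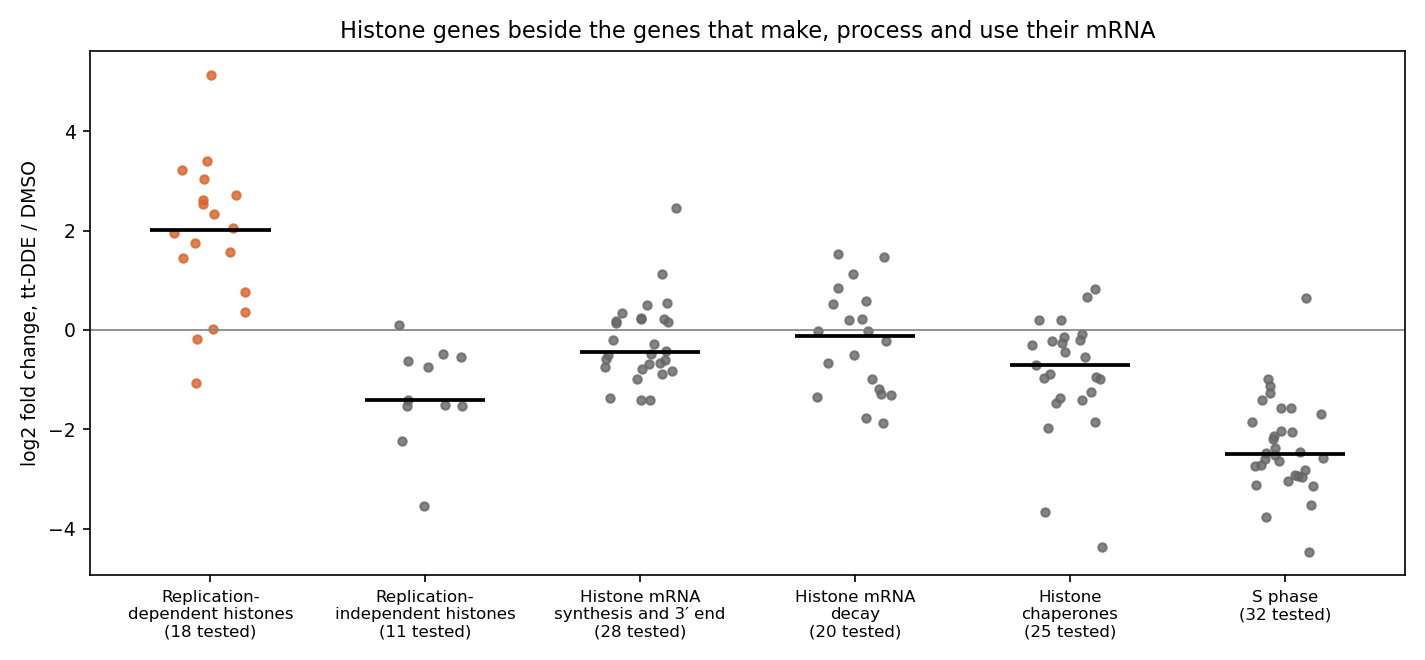
Log2 fold change (tt-DDE over DMSO) of every tested gene in 6 gene lists, 1 point per gene with a bar at the median; the horizontal scatter has no meaning. The replication-dependent histones (orange) have a median of 2.00, the replication-independent histones -1.41 and the S phase genes -2.50.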

How the data were processed

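Polyadenylated RNA of 6 ARPE-19 libraries was analysed, 3 per group, with groups and replicate numbers from the sample titles. The authors deposited a table of read counts and FPKM per gene and library, per the file headers, on GRCh38.p13 as the submitters' processing notes name it. Aligner, counting program, strand setting and treatment of reads that match several genes were not given in the sources used here. FPKM as deposited by the authors equalled count per length and column total for 91254 of 91254 values above 0 (relative tolerance 1e-06).

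Rows sharing a name were summed (22312 rows, 19514 names). The test was two-sided, by edgeR 4.0.16 under R 4.3.3 (TMM, filterByExpr, then glmQLFit and glmQLFTest with group alone as a term). Benjamini-Hochberg adjustment ran over all 12531 names tested, at a threshold of 0.05. The common dispersion was 0.00134. Ratios of summed counts have exact conditional binomial 95% intervals; reads carried no molecular identifiers, so intervals and floors reflect counting error alone. The script was tested on simulated data. Chi-square per degree of freedom between libraries of a group was 1.74 to 3.57, more than sampling noise gives.

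The members and lists were chosen with earlier results of these data known. Every histone gene with at least 10 counts is named, and of other lists up to 4 genes with the smallest p, the first of the rarer direction, some tested replication-independent histones (1 is not reported here), SLBP, NPAT and CASP8AP2. Stem-loops and poly(A) signals were searched in GENCODE 29 transcripts and promoter motifs in RefSeq promoters; bases shared between genes were counted as exact 50-base words of these transcripts. Alternatives were other scaling, no filter, DESeq2 1.42.0, limma 3.58.1 on log2(FPKM + 1) and log2(FPKM + 0.1), the first row of each name, the replicate number as a block, and each library left out. Mitochondrially encoded genes were not analysed here.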

Additional observations from a re-analysis of the deposited data

How the results depend on the processing

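Of the 18 tested histone genes, 13 to 15 were called higher under every alternative with the filter, and leaving out 1 library gave 13 to 15. Without the filter, 18 of 53 histone genes were called higher, a share near the 34.2% of all genes. The number called lower was 2, but 0 with DESeq2, and 0 to 2 with 1 library left out. Scaling to column totals alone, which moved the median of all genes to -0.09, lowered the log2 ratio of pooled counts to 0.95 from 1.04 for all members, 1.71 from 1.80 without H2BC12, 1.05 from 1.14 for H2A, 0.68 from 0.77 for H2B and 2.14 from 2.23 for H2B without H2BC12. It also took the share of calls that were higher from 50.1% to 45.4%. H2BC11, not called, changed sign to -0.072 with column totals, -0.008 without the filter, -0.058 and -0.076 with limma on log2(FPKM + 1) and log2(FPKM + 0.1), and lay between -0.123 and 0.255 with 1 library left out. The cause was not tested. With the replicate number as a block, 15 histone genes were higher and 2 lower, and 10371 genes were called in all against 10433; the numbers did not pair the libraries (correlations of same-numbered libraries 0.017, -0.006 and -0.012). Of single-gene values under alternatives, 228 kept their sign and stayed on the same side of the threshold, and 16 lost their call. The other 8 changed sign, all of them values of H2BC11, which stayed uncalled. Depth limits the 48 genes under the filter.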

Other observations

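Of 21 genes tested for poly(A) site choice and the tail, 7 rose, 9 fell and 5 did not pass, with a median log2 fold change of -0.07 against 0.00 for all genes. These shares are near or below the 41.7% higher and 41.6% lower among all genes, so the counts do not set the list apart. PAPOLA, the main nuclear poly(A) polymerase, rose from 272.4 to 607.2 CPM (1.16, edgeR adjusted p = 1.52e-30). TENT4B, a non-canonical poly(A) polymerase, rose by 1.27 and PCF11, a cleavage and termination factor, by 1.03, while CSTF1, a subunit of the cleavage stimulation factor, fell by 1.04. The part of these genes in the histone counts was not tested.

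Histone genes did not rank the tt-DDE libraries alike. Library 1 had the highest level of H1-4 (6.07 CPM, against 4.35 and 3.66) and H2BC8 (5.53 CPM, against 3.59 and 3.92), while H2BC5 was lowest there (9.98 CPM, against 11.1 and 11.8). Among the histone genes, 10 had counts only in tt-DDE libraries and 3 only in DMSO libraries, with at most 9 counts each. Of all genes with counts under the filter, 72% had a higher summed level after tt-DDE. The imbalance therefore does not set the histone genes apart.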
